A study of Arabidopsis thaliana with 24 samples.

Results

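The Aux/IAA repressors and the ARF transcription factors form the core of the nuclear auxin response in Arabidopsis, and 41 of their genes were followed through dark-induced leaf senescence: 29 Aux/IAA genes (IAA1 to IAA20 and IAA26 to IAA34) and 12 ARF genes (ARF1 to ARF8, ARF10, ARF16, ARF17 and ARF19). They were taken by locus, as members of these families, from the 32627 genes of the array, and all 41 were found. Rosette leaves at 12 d after emergence were detached from plants 21 d old, floated on 3 mM MES and kept in the dark. RNA was taken at 0, 1, 2 and 3 d after treatment (DAT), with the leaves at 0 DAT as the untreated control. The genotypes were ein2/ore3, an ethylene-insensitive mutant, ahk3/ore12, a gain-of-function mutant of the cytokinin receptor AHK3, and the wild type Columbia (Col). Each of the 12 conditions was measured on 2 single-channel arrays. The methods describe them as biological replicates, without saying whether plants were grown or harvested apart. Every p measures the spread between these arrays, except in the model of genotype and time. That model fits the same difference between mutant and Col at all days, so its spread also holds changes of this difference over the days.

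An Aux/IAA protein binds an ARF and holds a TOPLESS-type co-repressor at the promoters the ARF occupies. Auxin joins the Aux/IAA protein to an F-box receptor of the TIR1/AFB family through a short degron, the Aux/IAA protein is degraded, and the ARF is set free. Many Aux/IAA genes are themselves induced by auxin, which closes a negative feedback loop, and they are often used as a readout of the auxin response. The ARFs are split into activators (ARF5, ARF6, ARF7, ARF8 and ARF19 here) and repressors (the others here). ARF2 is known as a promoter of leaf ageing.

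All values are log2 intensities, and a change or a difference is given on the log2 scale with its standard error (SE). A level is not compared between genes, because probes differ in their response. Members were measured by 3 to 4 probes, and 4 of them (IAA5, IAA20, IAA30 and IAA31) lay in the dimmest 25% of genes, below a mean of 7.01. Array medians lay between 9.02 and 9.16, except for 8.91 in ein2/ore3 2 DAT replicate 2. Pearson's correlation of replicates across genes ranged from 0.965 to 0.995. AHK3 (12.59 to 13.25) and EIN2 (13.20 to 13.72) did not pass the test in either mutant against Col at any day, with lowest adjusted p of 0.311 and 0.123 (limma). Transcript levels of the mutated genes thus give no check of the labels. The mesophyll genes LHCB1.3 (13.13 to 15.08) and RBCS1A (14.04 to 16.33) were bright on all arrays.

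Most Aux/IAA genes fell in Col leaves in the dark, and the ARF genes that changed mostly fell too. At 3 against 0 DAT, 18 of 29 Aux/IAA genes were lower and 4 were higher, where 19.3% of all genes were lower and 20.2% were higher, 39.4% in all (limma, FDR under 0.05 over all genes). The Aux/IAA genes had a median log2 change of -1.07, beside 0.14 for the whole array. Of the 12 ARF genes, 7 were lower and 1 was higher, with a median log2 change of -0.38. The falls spanned a much wider range among the Aux/IAA genes, down to -5.10 on the log2 scale for IAA17, than among the ARF genes, where ARF3 fell by 2.94 and no other member fell by more than 1.38. By the F-test over the 4 days of Col at FDR under 0.01, 19 Aux/IAA and 4 ARF genes passed, against 15.9% of all genes. This count was 7 to 11 Aux/IAA genes and 1 ARF gene when either array of Col at 0, 2 or 3 DAT was left out, and 2 ARF genes without either array of 1 DAT. RNA was taken from whole leaves, so that fewer cells of a type and less RNA per cell cannot be told apart.

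**Figure D1:**
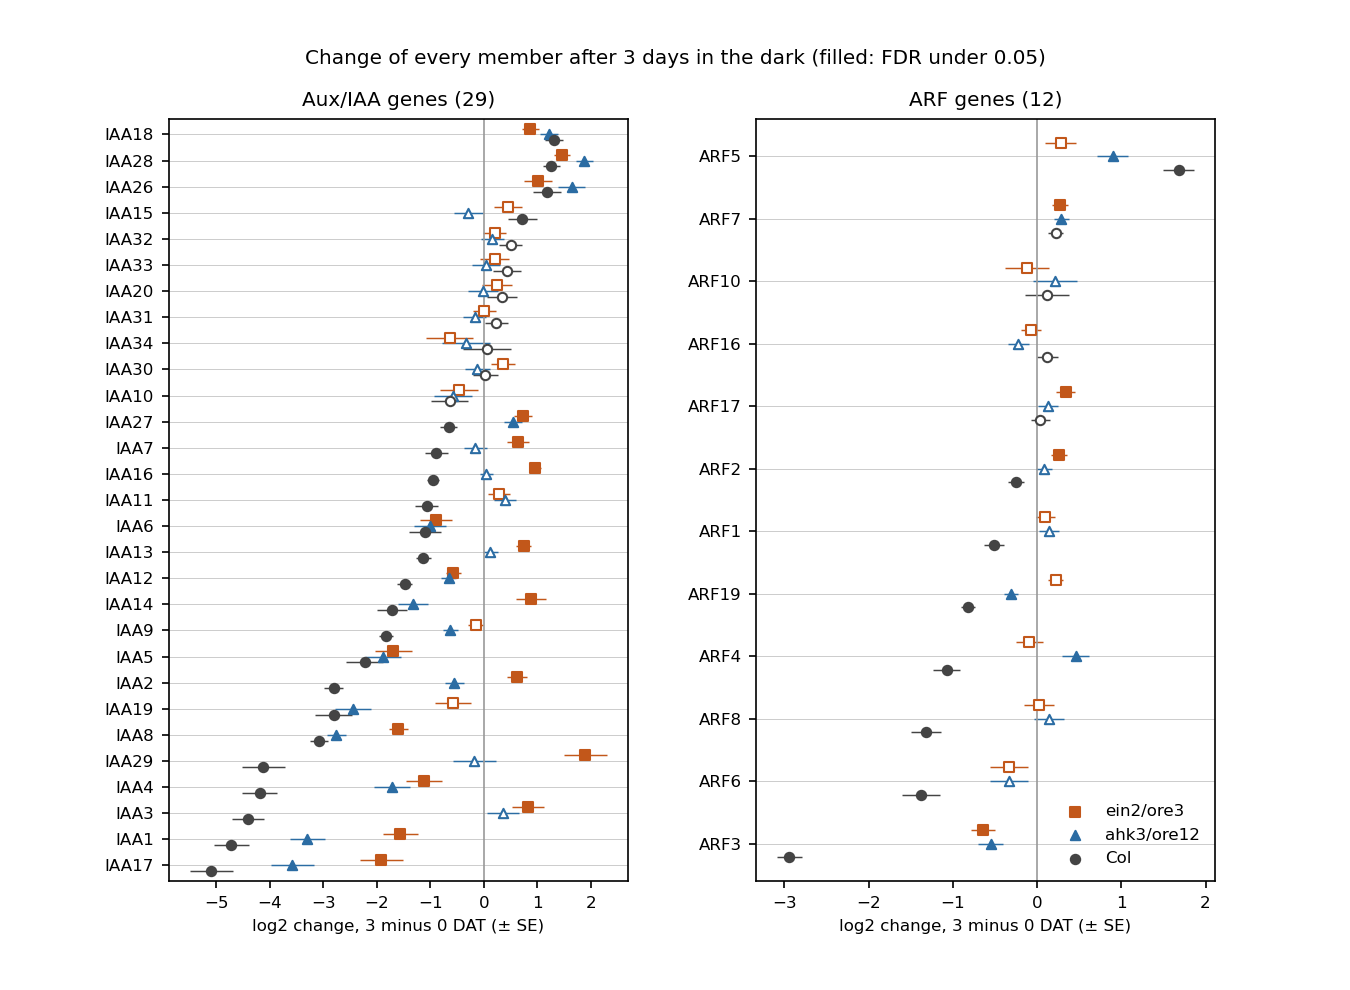
Log2 change from 0 to 3 DAT of all 29 Aux/IAA genes (left) and 12 ARF genes (right) in ein2/ore3, ahk3/ore12 and Col, with SE as bars and filled symbols where FDR was under 0.05. Col points reach -5.10 (IAA17) and -2.94 (ARF3), and the points of both mutants lie to the right of Col for all 18 Aux/IAA genes and all 7 ARF genes that fell in Col.

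The largest falls in Col were those of IAA17/AXR3, IAA1, IAA3/SHY2, IAA4 and IAA29. IAA17 (AT1G04250), whose stabilizing mutations make plants resistant to auxin, had log2 intensities of 10.94 and 10.65 in Col at 0 DAT, 8.31 and 7.51 at 1 DAT, 6.23 and 6.10 at 2 DAT, and 5.73 and 5.67 at 3 DAT. The arrays of successive days did not overlap. Its log2 change at 3 DAT was -5.10 ± 0.401 (SE, limma, adjusted p = 6.0e-08), which is a 34.2-fold fall. IAA1 (AT4G14560), an early auxin-induced gene, had 11.21 and 10.90 at 0 DAT, 8.67 and 8.49 at 1 DAT, 6.24 and 6.84 at 2 DAT, and 6.18 and 6.50 at 3 DAT, with a log2 change of -4.72 ± 0.331 at 3 DAT (limma, adjusted p = 1.7e-08). Its arrays of 2 and 3 DAT overlapped. IAA4 (AT5G43700), also an early auxin gene, had 10.89 and 10.34 at 0 DAT, 9.41 and 9.35 at 1 DAT, 7.32 and 7.28 at 2 DAT, and 6.43 and 6.42 at 3 DAT, a log2 change of -4.19 ± 0.331 (limma, adjusted p = 6.2e-08).

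IAA3 and IAA29 did not pass at 1 DAT and were lower at 2 and 3 DAT. IAA3 (AT1G04240), a repressor of the auxin response in the root meristem, had log2 intensities of 11.62 and 11.64 in Col at 0 DAT, 11.06 and 11.85 at 1 DAT, 9.80 and 10.62 at 2 DAT, and 7.07 and 7.37 at 3 DAT. The arrays of 1 DAT spanned those of 0 DAT, and the change at 3 DAT was -4.41 ± 0.297 (limma, adjusted p = 1.1e-08). IAA29 (AT4G32280), a shade-induced member, had 11.62 and 11.38 at 0 DAT, 11.57 and 12.17 at 1 DAT, 8.18 and 9.09 at 2 DAT, and 7.24 and 7.53 at 3 DAT, with a change of -4.12 ± 0.399 (limma, adjusted p = 6.2e-07). IAA19/MSG2 (AT3G15540), which acts with ARF7 in the bending of the hypocotyl, had 9.46 and 9.03 at 0 DAT, 8.51 and 8.25 at 1 DAT, 6.69 and 5.83 at 2 DAT, and 6.52 and 6.35 at 3 DAT, and its log2 change was -2.81 ± 0.338 at 3 DAT (limma, adjusted p = 6.1e-06). At 3 DAT in Col, 8 Aux/IAA genes lay among the dimmest 25% of genes, among them IAA1, IAA4, IAA17 and IAA19. How far a floor of the signal limited the size of these falls was not tested.

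The calls at 1 and 3 DAT sorted the Aux/IAA genes of Col by the course they took. Lower at both days were 8 genes (IAA1, IAA4, IAA5, IAA6, IAA8, IAA12, IAA14 and IAA17), and 7 others were lower only at the later of these days (IAA3, IAA9, IAA11, IAA13, IAA16, IAA19 and IAA29). A set of 3 genes was higher at 1 DAT and lower at 3 DAT: IAA2 changed by 0.91 at 1 DAT and by -2.81 at 3 DAT, IAA7/AXR2 by 0.79 and -0.89, and IAA27 by 0.71 and -0.66. IAA18, IAA26 and IAA28, a repressor of lateral root initiation, were higher at both days, with log2 changes at 1 DAT of 0.94, 1.02 and 1.76, and at 3 DAT of 1.31, 1.18 and 1.26. IAA15 was higher at 3 DAT only, by 0.72 (limma, adjusted p = 0.0434). The remaining 7 (IAA10, IAA20, IAA30, IAA31, IAA32, IAA33 and IAA34) passed at neither day. IAA20 and IAA30 to IAA34 are the members whose degron is missing or degenerate, and their log2 intensities lay between 5.44 and 9.61 on all arrays. Over all genes, 13.3% were higher and 15.0% lower at 1 DAT in Col, against 6 and 8 of 29 Aux/IAA genes and 1 and 3 of 12 ARF genes, and 28.3% in all.

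**Figure D2:**
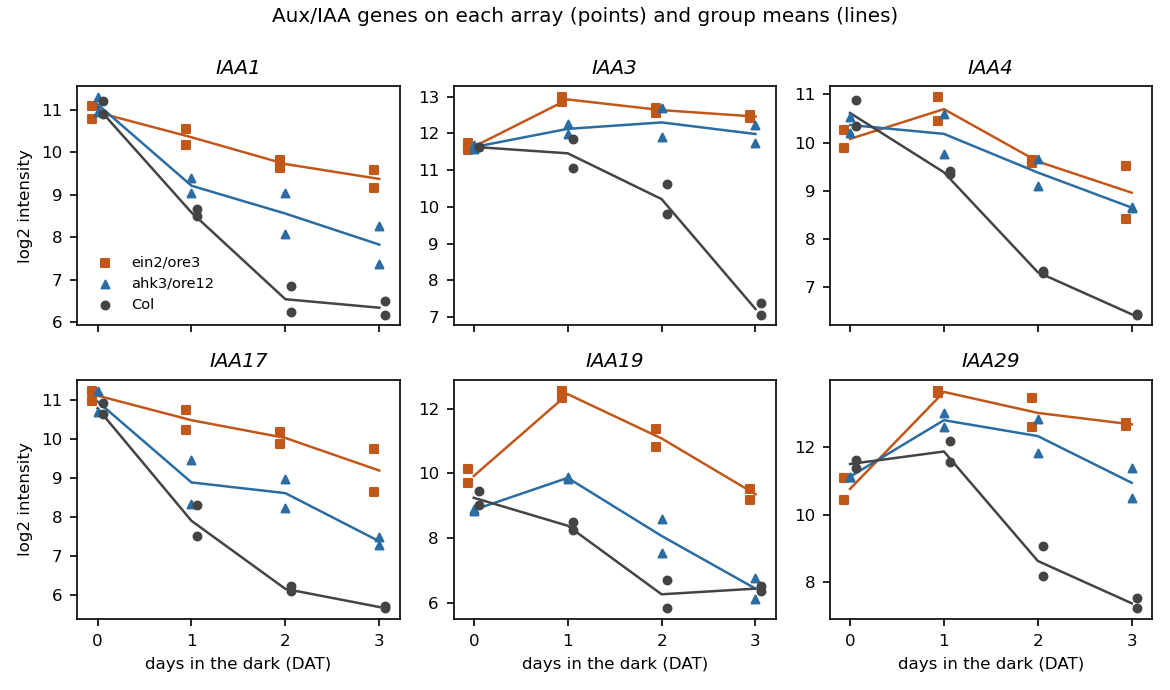
Log2 intensity of 6 Aux/IAA genes over 0 to 3 DAT, with each array as a point and the mean of each genotype as a line. Col ends lowest for IAA1, IAA3, IAA4, IAA17 and IAA29, and the Col and ahk3/ore12 points of IAA19 overlap at 3 DAT, at 6.12 and 6.75 in ahk3/ore12 and 6.52 and 6.35 in Col.

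Fewer of these genes fell in the mutants, and some rose. Of the 18 Aux/IAA genes that fell in Col at 3 DAT, 7 fell in ein2/ore3, 3 did not pass the test and 8 rose (IAA2, IAA3, IAA7, IAA13, IAA14, IAA16, IAA27 and IAA29). The rise of IAA3 lost its call under quantile normalization. In ahk3/ore12, 11 of these 18 fell, 6 did not pass and IAA27 rose. Over all 29 Aux/IAA genes, 11 were higher and 7 lower at 3 DAT in ein2/ore3 (17.8% and 14.6% of all genes, 32.4% together), and 4 were higher and 11 lower in ahk3/ore12 (20.4% and 13.9%, 34.3% together). The median log2 change of the Aux/IAA genes was 0.25 in ein2/ore3, beside 0.02 for all genes, and -0.18 in ahk3/ore12, beside -0.06. The 2 replicates of ein2/ore3 gave different medians over the Aux/IAA genes, -0.25 and 0.64, whereas those of ahk3/ore12 were -0.30 and -0.12 and those of Col were -1.12 and -0.94.

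No member passed the test between a mutant and Col before the dark treatment. At 0 DAT, 0 of 41 members passed the test in ein2/ore3 and 0 of 41 in ahk3/ore12 (limma), and 3 and 1 had an unadjusted p under 0.05. Over all genes, 0.288% passed for ein2/ore3 and 0.0245% for ahk3/ore12. In ein2/ore3, 15 of 41 members were higher than in Col and 1 was lower at 1 DAT, 20 were higher and 3 lower at 2 DAT, and 23 were higher and 2 lower at 3 DAT. The background in all genes was 9.64% higher and 3.62% lower at 1 DAT (13.3% together), 10.4% and 9.90% at 2 DAT (20.3%), and 14.4% and 10.7% at 3 DAT (25.1%). For ahk3/ore12, 0 of 41 passed at 1 DAT (8 at an unadjusted p under 0.05, and 1 with the replicate number, which marks the slide, as a block), 18 were higher and 1 lower at 2 DAT, and 21 were higher and 1 lower at 3 DAT. Here the background was 0.631% in either direction at 1 DAT, 8.85% higher and 3.16% lower at 2 DAT (12.0% together), and 14.8% and 8.36% at 3 DAT (23.1%). At 2 DAT, 12 members passed in all when ahk3/ore12 2 DAT replicate 2 was left out.

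**Figure D3:**
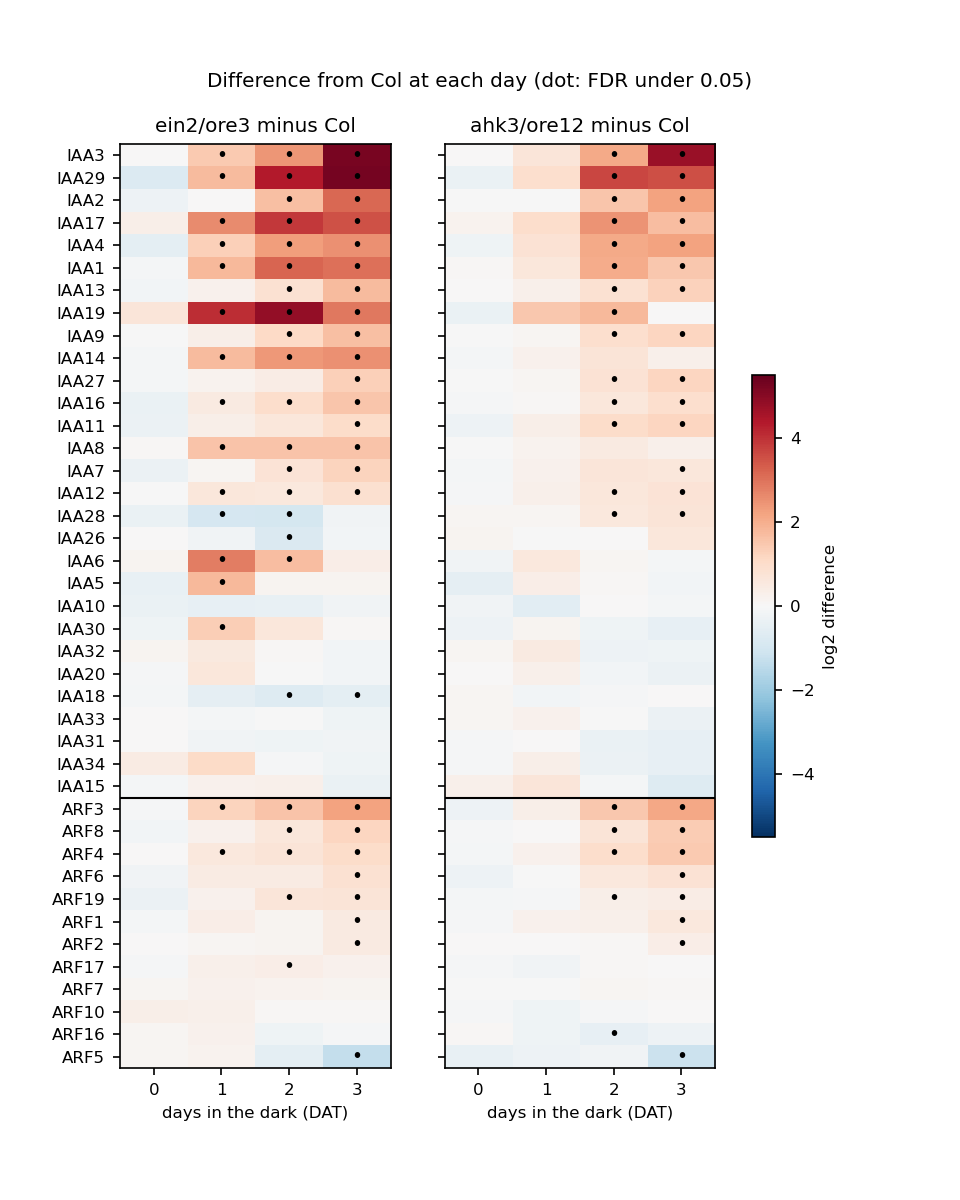
Log2 difference of ein2/ore3 from Col (left) and of ahk3/ore12 from Col (right) for each member at 0 to 3 DAT, red where the mutant was higher, with a dot where FDR was under 0.05. The columns of 0 DAT hold no dot, dots begin at 1 DAT in ein2/ore3 and at 2 DAT in ahk3/ore12, and the largest difference is that of IAA29 in ein2/ore3 at 3 DAT, 5.28.

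IAA29 and IAA3 had the largest differences from Col at 3 DAT in both mutants. IAA29 had log2 intensities of 11.10 and 10.43 in ein2/ore3 at 0 DAT, 13.67 and 13.59 at 1 DAT, 13.44 and 12.58 at 2 DAT, and 12.71 and 12.63 at 3 DAT. The ahk3/ore12 arrays had 11.13 and 11.12 at 0 DAT, 12.59 and 13.00 at 1 DAT, 11.82 and 12.83 at 2 DAT, and 10.51 and 11.38 at 3 DAT. At 3 DAT every array of both mutants lay above the Col arrays (7.24 and 7.53), and in ein2/ore3 every array taken in the dark lay above those of 0 DAT. The change from 0 to 3 DAT was 1.90 ± 0.399 in ein2/ore3, -0.18 ± 0.399 in ahk3/ore12 and -4.12 ± 0.399 in Col. The change in ahk3/ore12 did not pass and differed in sign between the replicates (-0.62 and 0.26). Set against the change in Col, that of ein2/ore3 was greater by 6.02 ± 0.564 (limma, adjusted p = 7.9e-06) and that of ahk3/ore12 by 3.94 ± 0.564 (adjusted p = 4.5e-04).

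IAA3 had 11.73 and 11.54 in ein2/ore3 at 0 DAT, 12.99 and 12.85 at 1 DAT, 12.70 and 12.56 at 2 DAT, and 12.49 and 12.42 at 3 DAT, and in ahk3/ore12 it had 11.69 and 11.56, 11.99 and 12.25, 11.90 and 12.69, and 11.74 and 12.22 at the same days. In both mutants every array in the dark lay above those of 0 DAT, but in ahk3/ore12 the change passed at no day. Its difference in change at 3 DAT was 5.23 ± 0.419 in ein2/ore3 (limma, adjusted p = 2.3e-06) and 4.76 ± 0.419 in ahk3/ore12 (adjusted p = 1.3e-05).

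IAA17, the neighbour of IAA3 on chromosome 1, fell in all genotypes, and by less in ein2/ore3 than in Col. It had 11.25 and 10.99 in ein2/ore3 at 0 DAT, 10.74 and 10.24 at 1 DAT, 10.18 and 9.89 at 2 DAT, and 9.75 and 8.65 at 3 DAT, and in ahk3/ore12 it had 11.24 and 10.70, 9.46 and 8.33, 8.25 and 8.99, and 7.28 and 7.49 at the same days. At 3 DAT ein2/ore3 had a log2 change of -1.92 ± 0.401 and ahk3/ore12 one of -3.58 ± 0.401, against -5.10 ± 0.401 in Col. Its difference in change was 3.18 ± 0.567 for ein2/ore3 (limma, adjusted p = 0.00129), and 1.51 ± 0.567 for ahk3/ore12, which did not pass (adjusted p = 0.0969, but 0.0441 with the replicate number, which marks the slide, as a block). Of these adjacent genes, IAA3 was higher and IAA17 lower at 3 DAT than at 0 DAT in ein2/ore3.

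Another such pair is IAA1 and IAA14/SLR, the repressor whose stabilized form blocks lateral roots, which lie next to each other on chromosome 4. IAA1 had 11.09 and 10.78 in ein2/ore3 at 0 DAT, 10.54 and 10.16 at 1 DAT, 9.81 and 9.63 at 2 DAT, and 9.59 and 9.15 at 3 DAT, and in ahk3/ore12 it had 11.30 and 10.95, 9.39 and 9.03, 8.07 and 9.04, and 7.38 and 8.27. At 3 DAT ein2/ore3 had a log2 change of -1.56 ± 0.331 and ahk3/ore12 one of -3.3 ± 0.331, against -4.72 ± 0.331 in Col. IAA14 instead rose by 0.88 ± 0.283 in ein2/ore3 and fell by 1.32 ± 0.283 in ahk3/ore12 and by 1.72 ± 0.283 in Col. The difference from the change in Col was 2.6 for IAA14 and 3.15 for IAA1 in ein2/ore3 (limma, adjusted p = 4.2e-04 and 3.3e-04), and 0.40 and 1.42 in ahk3/ore12, where neither passed (adjusted p = 0.0607 for IAA1, but 0.0313 under quantile normalization and 0.0484 without the dimmest 25% of genes). In the pair on chromosome 3, IAA2 and IAA7 both rose in ein2/ore3 at 3 DAT, by 0.62 and 0.64, where they fell in Col by 2.81 and 0.89, and both were higher at 1 DAT in every genotype.

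IAA19 in ein2/ore3 and IAA4 in ahk3/ore12 were also among the 4 members with the largest difference from Col over all days. IAA4 had 10.26 and 9.89 in ein2/ore3 at 0 DAT, 10.95 and 10.44 at 1 DAT, 9.64 and 9.57 at 2 DAT, and 9.51 and 8.40 at 3 DAT, and in ahk3/ore12 it had 10.53 and 10.20, 10.59 and 9.77, 9.10 and 9.65, and 8.65 and 8.64. At 3 DAT its arrays in both mutants lay above those of Col (6.43 and 6.42), and the difference in change was 3.07 ± 0.467 for ein2/ore3 and 2.47 ± 0.467 for ahk3/ore12 (limma, adjusted p = 3.9e-04 and 0.00291). IAA19 had 10.13 and 9.71 in ein2/ore3 at 0 DAT, 12.56 and 12.34 at 1 DAT, 11.36 and 10.80 at 2 DAT, and 9.52 and 9.19 at 3 DAT, and in ahk3/ore12 it had 8.90 and 8.84, 9.90 and 9.82, 7.54 and 8.59, and 6.12 and 6.75. It was thus higher on all arrays of ein2/ore3 at 1 and 2 DAT than before the dark. In ahk3/ore12 it was also higher at 1 DAT, by 0.99, and then fell by 2.44 ± 0.338 at 3 DAT, where the log2 change in Col was -2.81 ± 0.338, and the difference in change at 3 DAT was 0.38 ± 0.479 (limma, adjusted p = 0.616). This value was 0.69 without ahk3/ore12 3 DAT replicate 1, 0.06 without replicate 2 of the same day, and 0.16 and 0.59 without replicates 1 and 2 of Col at 0 DAT.

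Over all days together, in a model of genotype and time, 13 Aux/IAA genes were higher and 2 lower in ein2/ore3 than in Col, where 10.7% and 8.55% of all genes passed (19.2% together), and 9 were higher and 0 lower in ahk3/ore12, where 5.11% and 3.86% passed (8.97%). The largest log2 differences were 3.12 ± 0.446 for IAA19, 2.67 ± 0.660 for IAA29, 2.57 ± 0.405 for IAA17 and 2.28 ± 0.534 for IAA3 in ein2/ore3, and 1.95 ± 0.506 for IAA29, 1.88 ± 0.521 for IAA3, 1.32 ± 0.285 for IAA17 and 1.21 ± 0.30 for IAA4 in ahk3/ore12 (SE, limma, adjusted p between 9.5e-04 and 0.0433). IAA18 and IAA28, which rose in the dark, were the members lower in ein2/ore3, by -0.47 and -0.62, whereas IAA28 was higher in ahk3/ore12, by 0.38. Of the ARF genes, 5 were higher and 0 lower in ein2/ore3, and ARF3 and ARF4 were higher and ARF5 lower in ahk3/ore12. The SE and p of this model also hold the variation of a difference over the days. The calls in ahk3/ore12 depended on single arrays. Without any one ahk3/ore12 or Col array of 2 or 3 DAT, 0 Aux/IAA and 0 ARF genes passed. Without replicate 1 or replicate 2 of ahk3/ore12 at 1 DAT, 1 or 3 Aux/IAA and 0 ARF genes did, and without Col 1 DAT replicate 1 the ARF count was 1. It was 14 Aux/IAA genes with 6 ARF genes when ahk3/ore12 0 DAT replicate 2 was left out, and 14 with 5 when Col 0 DAT replicate 1 was. The log2 differences of IAA29, IAA3, IAA17 and IAA4 stayed between 1.08 and 2.18 throughout. The 5 ARF calls in ein2/ore3 were 2 or 3 without any single array of 1, 2 or 3 DAT of either genotype, ein2/ore3 2 DAT replicate 2 included, and 8 without Col 0 DAT replicate 1.

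The difference in change tests directly whether the course differed between a mutant and Col. In ein2/ore3 it passed for 13 members at 1 DAT, where 5.67% of all genes passed and 4.59% upward. At 2 DAT 16 members passed (11.1% of all genes, 6.76% upward), and at 3 DAT 24 members (16.2%, with 10.5% upward and 5.69% downward). In ahk3/ore12, 0 members passed at 1 DAT (limma, 4 at an unadjusted p under 0.05, beside 0.0429% of all genes), 15 at 2 DAT (5.67%, 4.70% upward) and 16 at 3 DAT (13.3%, 9.96% upward). All of these differences were positive except that of ARF5 in ein2/ore3 at 3 DAT. The 13 members at 1 DAT were 5 without ein2/ore3 0 DAT replicate 2 or without ein2/ore3 1 DAT replicate 1, and 6 without Col 0 DAT replicate 1. The 15 members of ahk3/ore12 at 2 DAT were 4 without Col 0 DAT replicate 1 or ahk3/ore12 2 DAT replicate 2, 6 if ahk3/ore12 0 DAT replicate 2 was left out and 7 if Col 2 DAT replicate 1 was. Among the members of 1 DAT in ein2/ore3, IAA6 rose by 1.35 in ein2/ore3 and fell by 1.3 in Col, and IAA30 rose by 1.54 in ein2/ore3 with a change of -0.08 in Col. Their differences in change at 3 DAT, 0.21 and 0.33, did not pass.

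**Figure D4:**
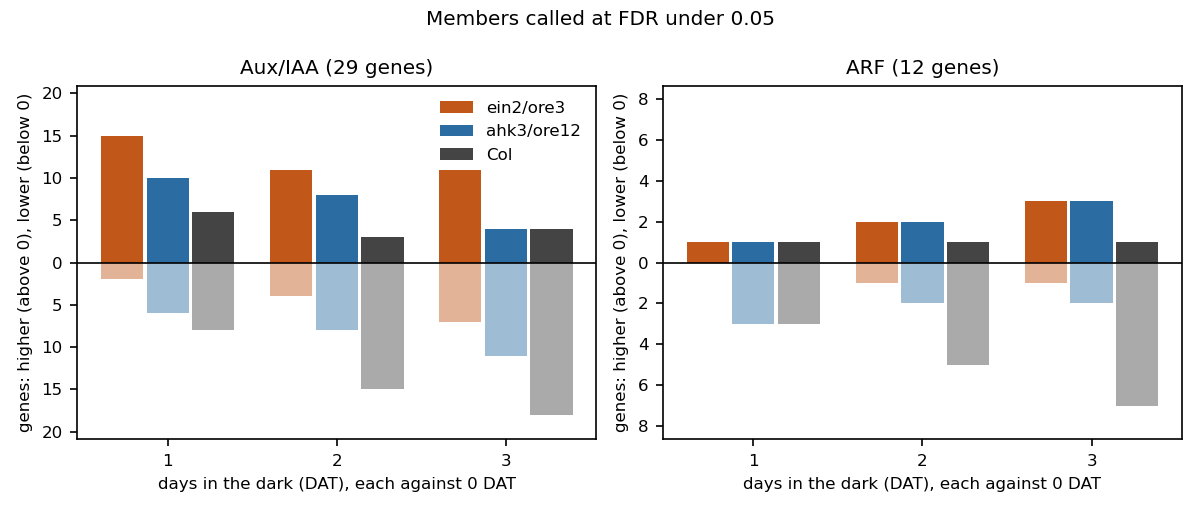
Number of Aux/IAA (left) and ARF genes (right) higher (bars above 0) and lower (paler bars below 0) than at 0 DAT, at 1, 2 and 3 DAT in ein2/ore3, ahk3/ore12 and Col. In Col the lower Aux/IAA genes number 8, 15 and 18 over the days, in ein2/ore3 the higher ones number 15, 11 and 11.

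Over the days, fewer Aux/IAA genes were called higher and more were called lower in each mutant. In ein2/ore3, 15, 11 and 11 of 29 were higher at 1, 2 and 3 DAT and 2, 4 and 7 were lower. In ahk3/ore12, 10, 8 and 4 were higher and 6, 8 and 11 were lower. In Col, 6, 3 and 4 were higher and 8, 15 and 18 were lower. Of all genes, 13.9% were higher and 8.87% lower at 1 DAT in ein2/ore3 (22.8% together), and 13.6% and 12.3% in ahk3/ore12 (25.9%). The shares at 2 DAT were 14.7% and 16.1% for ein2/ore3 (30.8%), 17.8% and 12.3% for ahk3/ore12 (30.1%), and 16.6% and 17.9% for Col (34.6%). Of the 41 members, 18 passed at 2 DAT in ein2/ore3, but 10 without ein2/ore3 0 DAT replicate 2, and 20 passed in ahk3/ore12, but 13 without ahk3/ore12 0 DAT replicate 1.

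Among the repressor ARFs, ARF3/ETT and ARF4, which set the lower side of the leaf and are targets of the tasiRNAs of TAS3, changed most at 3 DAT in Col. ARF3 (AT2G33860) had log2 intensities of 11.76 and 11.53 in ein2/ore3 at 0 DAT, 11.77 and 11.72 at 1 DAT, 11.21 and 11.12 at 2 DAT, and 11.06 and 10.95 at 3 DAT, and in ahk3/ore12 it had 11.44 and 11.50, 10.72 and 11.01, 10.90 and 11.26, and 10.88 and 10.97. In Col it had 11.84 and 11.62 at 0 DAT, 10.48 and 10.59 at 1 DAT, 9.50 and 9.68 at 2 DAT, and 8.64 and 8.93 at 3 DAT, with no overlap between days. The log2 change was -0.64 ± 0.147 for ein2/ore3 and -0.55 ± 0.147 for ahk3/ore12, against -2.94 ± 0.147 in Col (limma, adjusted p = 4.6e-10), and the difference from the change in Col was 2.31 ± 0.208 and 2.4 ± 0.208 (limma, adjusted p = 5.8e-06 and 1.2e-05). ARF4 did not pass in ein2/ore3 (-0.09), rose by 0.46 in ahk3/ore12 and fell by 1.07 in Col. ARF2 rose by 0.26 in ein2/ore3 and fell by 0.25 in Col, where it lost its call both under median centring and under quantile normalization. ARF1 fell by 0.51 in Col.

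ARF10, ARF16 and ARF17, the repressors cut under the guidance of miR160, did not pass at 3 DAT in Col, with log2 changes of 0.12 ± 0.262, 0.12 ± 0.123 and 0.04 ± 0.115. Their difference in change at 3 DAT passed in neither mutant, and it lay between -0.33 and 0.30. Among them, ARF17 rose by 0.34 in ein2/ore3. ARF16 was lower in ahk3/ore12 at 1 DAT, by -0.61.

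The activators went in different directions. ARF5/MP (AT1G19850), the activator of vascular patterning, had 9.94 and 9.94 in ein2/ore3 at 0 DAT, 10.25 and 10.21 at 1 DAT, 10.09 and 9.67 at 2 DAT, and 10.35 and 10.10 at 3 DAT, and in ahk3/ore12 it had 9.34 and 9.54, 9.80 and 9.72, 10.08 and 10.31, and 10.33 and 10.34. In Col it had 10.03 and 9.68 at 0 DAT, 10.30 and 9.77 at 1 DAT, 10.50 and 10.31 at 2 DAT, and 11.41 and 11.66 at 3 DAT. All arrays of the mutants at 3 DAT lay below those of Col. Its change of 0.28 ± 0.185 in ein2/ore3 did not pass, while it rose by 0.90 ± 0.185 in ahk3/ore12 and by 1.68 ± 0.185 in Col (limma, adjusted p = 2.4e-06), where it was the only one of the 12 ARF genes that rose at 3 DAT (2 rose under median centring). Against Col, the difference in change was -1.4 ± 0.262 for ein2/ore3 (limma, adjusted p = 0.00184) and -0.79 ± 0.262 for ahk3/ore12, with an adjusted p of 0.0623, which was 0.0432 with the replicate number as a block, 0.0456 under median centring, 0.0315 under quantile normalization and 0.0472 without the dimmest 25% of genes.

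ARF6 and ARF8, close relatives that are targets of miR167, fell in Col and in neither mutant. ARF6 (AT1G30330) had 10.67 and 10.68 in ein2/ore3 at 0 DAT, 10.72 and 10.49 at 1 DAT, 10.35 and 10.19 at 2 DAT, and 10.61 and 10.08 at 3 DAT, and in ahk3/ore12 it had 10.65 and 10.59, 10.44 and 9.78, 10.43 and 10.34, and 10.25 and 10.33. In Col it had 11.08 and 10.69 at 0 DAT, 10.42 and 9.88 at 1 DAT, 9.89 and 9.74 at 2 DAT, and 9.40 and 9.60 at 3 DAT, a log2 change of -1.38 ± 0.225 (limma, adjusted p = 1.2e-04). For ARF6 the difference in change was 1.06 ± 0.318 in both mutants, with an adjusted p of 0.0343 for ein2/ore3 and 0.0409 for ahk3/ore12 (limma). The call in ein2/ore3 was lost without any single array of ein2/ore3 at 0 DAT, of Col at 3 DAT, Col 0 DAT replicate 1 or ein2/ore3 3 DAT replicate 1 (0.79 to 1.32 over all omissions). That in ahk3/ore12 was lost in 15 of 24 such omissions (0.86 to 1.25) and under median centring (adjusted p = 0.0582). ARF8 had changes of 0.02 for ein2/ore3 and 0.14 for ahk3/ore12 that did not pass and fell by 1.32 ± 0.177 in Col, and its difference in change was 1.34 and 1.46 (limma, adjusted p = 0.00175 and 0.00154). ARF19 did not pass in ein2/ore3 (0.22) and fell by 0.31 in ahk3/ore12 and by 0.82 in Col, and its partner ARF7 rose by 0.27 in ein2/ore3 and 0.29 in ahk3/ore12, with 0.22 in Col that did not pass (adjusted p = 0.0838).

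**Figure D5:**
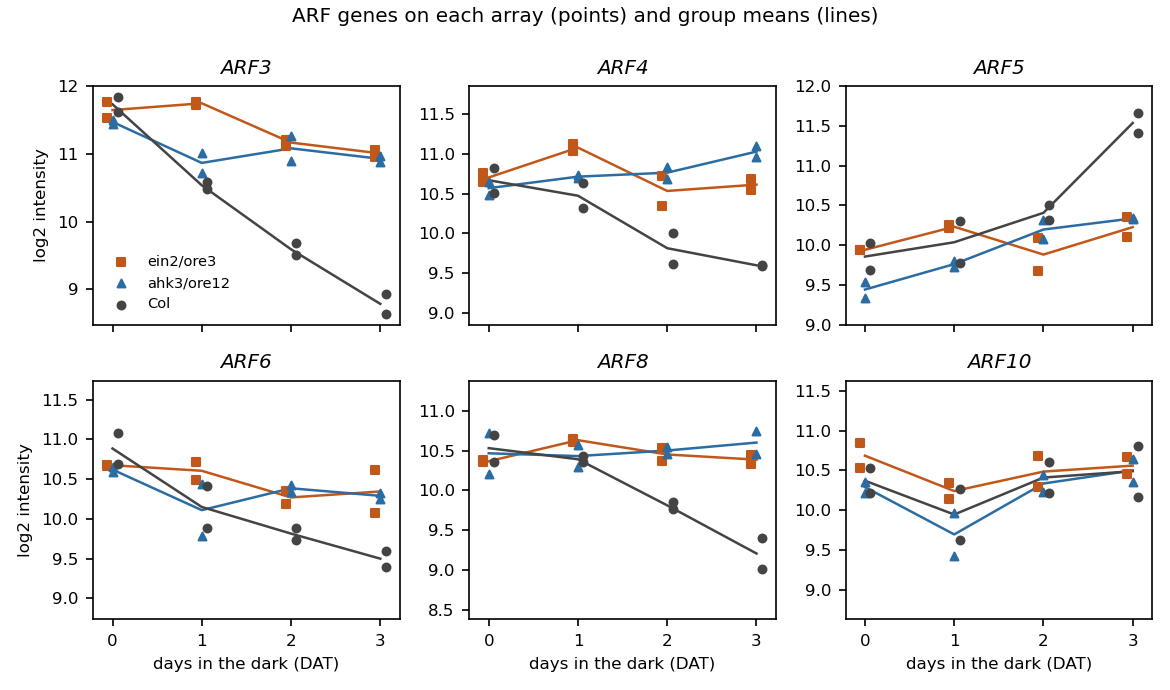
Log2 intensity of 6 ARF genes over 0 to 3 DAT, with each array as a point and the mean of each genotype as a line. ARF3, ARF4, ARF6 and ARF8 end lower in Col than in the mutants, ARF5 ends higher in Col (11.41 and 11.66) than in ein2/ore3 (10.35 and 10.10) and ahk3/ore12 (10.33 and 10.34), and the genotypes of ARF10 overlap at 3 DAT.

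In all, 3 ARF genes were higher and 1 lower at 3 DAT in ein2/ore3, 3 were higher and 2 lower in ahk3/ore12, and 1 was higher and 7 lower in Col. The 4 and 5 calls in the mutants are close to the shares of all genes that passed there (32.4% and 34.3%), while 8 of 12 passed in Col beside 39.4%. The 4 calls in ein2/ore3 were 1 without either array of 0 DAT or without replicate 1 of 3 DAT and 2 without either array of 1 DAT, and the 5 calls in ahk3/ore12 were 2 or 3 without any single ahk3/ore12 array of 0 or 3 DAT. In the difference in change at 3 DAT, 8 ARF genes passed for ein2/ore3 and 6 for ahk3/ore12, beside 16.2% and 13.3% of all genes. The 8 became 5 without ein2/ore3 3 DAT replicate 1 or Col 0 DAT replicate 1, and the 6 became 3 when replicate 1 of Col at 0 or 3 DAT was left out. Compared with Col at 3 DAT, 7 ARF genes were higher and ARF5 was lower in each mutant, and the 8 calls in ahk3/ore12 were 5 without ahk3/ore12 3 DAT replicate 1. ARF11 and ARF18, which are outside the 12 members, fell in Col by 2.06 and 1.44. ARF9, also outside the members, did not pass there, and its change was not below 0. Of these 3 genes, 2 were higher and 1 was lower than in Col at 3 DAT in each mutant.

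Other genes of the auxin pathway did not all follow the Aux/IAA genes. At 3 DAT in Col, 20.2% of all genes were higher and 19.3% lower. Of 8 auxin transport genes, 7 fell in Col at 3 DAT and none rose, led by the efflux carriers PIN7, PIN3 and PIN4 with log2 changes of -5.11, -3.52 and -3.16, and the difference in change passed for 6 in each mutant, each time upward (10.5% of all genes for ein2/ore3 and 9.96% for ahk3/ore12). Of 13 synthesis genes, 4 fell and none rose in Col, among them TAR2 (-3.58), YUC2 (-1.66) and YUC6 (-1.48). Of all genes, 19.3% fell and 39.4% passed in either direction. The difference in change at 3 DAT passed for 4 of the 13 in ein2/ore3 and for 1 in ahk3/ore12, each upward (10.5% and 9.96% of all genes). By contrast, of the 9 genes for GH3 enzymes, which conjugate auxin to amino acids, and the auxin oxidase DAO1, 6 rose in Col, GH3.2 by 3.29 among them, and 1 fell. GH3.17 rose by 3.6 in ein2/ore3, 3.78 in ahk3/ore12 and 5.08 in Col, and GH3.5 by 3.93, 3.97 and 4.82. The difference in change of this list passed for 1 gene in ein2/ore3, downward. In ahk3/ore12 it passed for 0 (3 at an unadjusted p under 0.05, limma). Of all genes, 16.2% passed for ein2/ore3 and 13.3% for ahk3/ore12. The estimates were below 0 for 8 of 9 genes in each mutant, with medians of -0.84 and -1.12 (all genes, -0.08 and -0.09). Levels at 3 DAT set directly against Col gave more calls (limma). For ahk3/ore12, 5 of the 9 genes were lower and 0 higher, beside 8.36% of all genes lower. For ein2/ore3, 2 were lower and 0 higher, beside 10.7% of all genes lower. Over all days, 3 were lower for ahk3/ore12 (3.86% of all genes) and 1 for ein2/ore3 (8.55%). Many GH3 genes, though not all, are known for their induction by auxin, as are many Aux/IAA genes. Whether this holds for the GH3 genes named here was not tested.

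Among the 6 receptor genes, AFB1 did not pass in ein2/ore3 (-0.14) and fell by 1.05 in ahk3/ore12 and by 2.87 in Col. TIR1 fell by 0.62 and AFB2 rose by 0.33 in Col. Of the 5 TOPLESS co-repressor genes, 3 rose in each genotype, beside 17.8% of all genes in ein2/ore3, 20.4% in ahk3/ore12 and 20.2% in Col. TPL rose by 1.48 in ein2/ore3, 1.73 in ahk3/ore12 and 1.25 in Col, and TPR2 by 0.65, 0.79 and 0.66. TPR3 had a log2 change of 0.66 ± 0.438 in Col and did not pass.

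At 3 DAT the summed levels of vascular and of mesophyll markers were higher on the arrays of both mutants than on those of Col, whereas those of the epidermis overlapped between ahk3/ore12 and Col. The log2 of the summed intensities of 3 vascular markers (SUC2, APL and IRX3) was 14.14 to 14.24 in ein2/ore3, 13.74 to 13.86 in ahk3/ore12 and 12.82 to 12.89 in Col at 3 DAT, and 14.20 to 14.46 over all genotypes at 0 DAT. That of 3 mesophyll markers (LHCB1.3, RBCS1A and CA1) was 16.00 to 16.07 in ein2/ore3, 15.95 to 16.11 in ahk3/ore12 and 14.70 to 14.77 in Col at 3 DAT, and 17.34 to 17.41 over all genotypes at 0 DAT. For 4 markers of epidermis and guard cells (ATML1, PDF1, MYB60 and FAMA) it was 11.97 to 12.41 in ein2/ore3, 11.73 to 11.87 in ahk3/ore12 and 11.45 to 11.90 in Col at 3 DAT, and 12.54 to 12.99 over all genotypes at 0 DAT. Of these markers, SUC2 and IRX3, all 3 of the mesophyll, and ATML1 and MYB60 fell in Col, APL rose, and PDF1, which was close to the lowest signals (5.86 to 6.53 at 0 and 3 DAT), and FAMA did not pass at 3 DAT. Against Col at 3 DAT, the single markers did not all follow these sums (limma). Of the 3 vascular markers, 2 were higher and 1 was lower in ein2/ore3. In ahk3/ore12, 1 was higher and 2 did not pass, with a median log2 difference of 0.03. The 3 mesophyll markers were all higher in ein2/ore3, and 2 were higher in ahk3/ore12. The part of the marker shifts in the results above was not tested.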

How the data were processed

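Leaves of ein2/ore3, ahk3/ore12 and Col at 0, 1, 2 and 3 DAT were hybridized to 24 NimbleGen arrays, 2 per condition. The deposited intensity per transcript variant is described by the authors as background-corrected, quantile-normalized and summarized over probes (RMA). Even so, ein2/ore3 2 DAT replicate 2 had the lowest median (8.91) and the lowest minimum (3.81) of log2 values among the arrays. The cause was not tested. The authors deposited log2 values per gene of the summed variants. These log2 values were used for 32627 genes without a filter, and they differed from log2 sums of the intensities by at most 0.00514. A single transcript variant stands for 23 of 29 Aux/IAA and 9 of 12 ARF genes. Fits across all genes used limma 3.58.1 in R 4.3.3 with Benjamini-Hochberg adjustment: an F-test over the days of the 8 Col arrays (FDR under 0.01), a model of genotype and time on the 16 arrays of a mutant and Col, and contrasts of 12 condition means on all 24 arrays (FDR under 0.05). Comparisons of the 2 mutants share the Col arrays.

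The members and lists were chosen with earlier results of these data known. Values of each array are given for the 5 Aux/IAA and 3 ARF genes with the largest change at 3 DAT in Col and the 4 members most altered in each mutant. Outside the members, EIN2, AHK3, the leaf markers and the 3 genes of each pathway list with the largest change in Col are named. Names followed a newer annotation, RefSeq, which matched all 97 listed loci and was otherwise used for gene order only.

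All arrays of a replicate number share a slide. The replicate number as a block was therefore an alternative. Other alternatives were log2 of summed intensities, the first variant only, no dim genes, median centring, quantile normalization, other thresholds, plain F-tests, smaller fits and leaving out each array, where the remaining array was assumed to vary like the others. Simulated data with 100 changed genes of each size among 32627 were used to score several of the comparisons. At a log2 size of 1, 52 were recovered for Col at 3 against 0 DAT and 85 for genes altered in ein2/ore3. The difference in change of ein2/ore3 at 3 DAT recovered 25, and the F-test in Col 0. At a log2 size of 2 the same comparisons recovered 90, 99, 74 and 47. Far more genes passed in the data, 39.4% for Col at 3 against 0 DAT, and this makes the adjustment less strict. The recovered counts thus do not measure how many changed genes the tests found in the data. A gene that did not pass may still have changed. The fits of ahk3/ore12 were not scored. The number of arrays limits the precision.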

Additional observations from a re-analysis of the deposited data

Results flagged for a closer look

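The change in the dark was compared between each mutant and Col by the test of the difference itself, and the members that passed (limma, adjusted p under 0.05) are given as the log2 change in the mutant minus that in Col. No group had the 4 arrays that a search for single outlying arrays needs.

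At 1 DAT in ein2/ore3, 11 Aux/IAA genes passed: IAA19 at 3.4, IAA6 at 2.66, IAA29 at 2.5, IAA17 at 2.26, IAA5 at 2.19, IAA1 at 1.89, IAA4 at 1.86, IAA14 at 1.84, IAA30 at 1.62, IAA8 at 1.49 and IAA16 at 0.87. ARF3 at 1.3 and ARF19 at 0.58 were the 2 ARF genes. All were positive, with adjusted p up to 0.0302.

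At 3 DAT in ein2/ore3, the values of 16 Aux/IAA genes were 6.02 for IAA29, 5.23 for IAA3, 3.44 for IAA2, 3.18 for IAA17, 3.15 for IAA1, 3.07 for IAA4, 2.6 for IAA14, 2.24 for IAA19, 1.90 for IAA16, 1.88 for IAA13, 1.68 for IAA9, 1.53 for IAA7, 1.48 for IAA8, 1.39 for IAA27, 1.36 for IAA11 and 0.91 for IAA12. Those of 8 ARF genes were 2.31 for ARF3, 1.34 for ARF8, 1.06 for ARF6, 1.03 for ARF19, 0.98 for ARF4, 0.61 for ARF1, 0.51 for ARF2 and -1.40 for ARF5, with adjusted p up to 0.0343.

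At 3 DAT in ahk3/ore12, the values of 10 Aux/IAA genes were 4.76 for IAA3, 3.94 for IAA29, 2.47 for IAA4, 2.26 for IAA2, 1.46 for IAA11, 1.25 for IAA13, 1.21 for IAA27, 1.2 for IAA9, 1.00 for IAA16 and 0.82 for IAA12. Those of 6 ARF genes were 2.4 for ARF3, 1.53 for ARF4, 1.46 for ARF8, 1.06 for ARF6, 0.64 for ARF1 and 0.50 for ARF19, with adjusted p up to 0.0409. Whether a change differed between the 2 mutants was not tested.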

How the results depend on the processing

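For the members named with their arrays, the change in Col at 3 DAT, the differences over all days and the differences in change at 3 DAT kept their sign under all alternatives. Without single arrays, changes within a mutant were recomputed as counts only. At FDR under 0.01 in place of 0.05, the genes altered over all days were 9 Aux/IAA and 2 ARF in ein2/ore3, and 0 of each in ahk3/ore12. The ARF calls at this threshold were 1 for ein2/ore3 and 2 for ahk3/ore12 at 3 against 0 DAT, and 5 and 3 for the difference in change. Under median centring, the altered ARF genes numbered 2 for ein2/ore3 and 1 for ahk3/ore12. With the plain F-test of the methods, 8 Aux/IAA and 2 ARF genes passed over the days of Col, and with the plain two-way test 1 Aux/IAA and 0 ARF genes were altered in ahk3/ore12. With the first transcript variant only, 2 ARF genes passed at 3 DAT in ein2/ore3. With the 8 arrays of a genotype alone, 1 ARF gene passed for ein2/ore3 and 3 for ahk3/ore12. The cause of these shifts was not tested, beyond the stricter threshold and the smaller numbers of arrays.

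When single arrays were left out, the range for Aux/IAA genes was 7 to 19 for the F-test in Col, 0 to 14 altered in ahk3/ore12 and 13 to 19 altered in ein2/ore3. For ARF genes it was 1 to 4 for the F-test in Col, 2 to 8 altered in ein2/ore3, 0 to 6 altered in ahk3/ore12, 1 to 4 at 3 against 0 DAT for ein2/ore3, 2 to 5 for ahk3/ore12, 5 to 8 for ahk3/ore12 against Col at 3 DAT, and 5 to 8 and 3 to 7 for the difference in change at 3 DAT in ein2/ore3 and ahk3/ore12. The Aux/IAA calls at 3 against 0 DAT numbered 12 to 18 in ein2/ore3, 12 to 15 in ahk3/ore12 and 19 to 23 in Col.

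Deviations of same-numbered arrays from their condition means had a median Pearson's r across genes of 0.302 for 66 pairs of conditions (-0.159 to 0.818, 47 over 0.1 and 2 under -0.1). Same-numbered arrays, which share a slide, thus tended to deviate together, but not in every pair, and the counts of the report come from fits without the block. With the replicate number as a block, 22 Aux/IAA and 8 ARF genes passed at 3 DAT in Col and 16 and 8 in the difference in change of ein2/ore3, as without it, and apart from the count for ahk3/ore12 against Col at 1 DAT no count moved by over 1.5 times. Among the members named with their arrays, it changed the calls of IAA17 and ARF5 given above and no other. No background measure marks which genes were above the floor.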
